A study of Mus musculus with 23 samples.

Results

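Transforming growth factor β (TGF-β) ligands, receptors and feedback were followed in tumors of PyMT mice, as 10 genes chosen by name: the ligands Tgfb1, Tgfb2 and Tgfb3, the related ligands Inhba, Bmp4 and Bmp7, the receptors Tgfbr1, Tgfbr2 and Tgfbr3, and the intracellular inhibitor Smad7. All 10 were found among 47643 gene identifiers, and all passed the filter on low values in every comparison. The 23 libraries were made from RNA of dissociated mammary tumors with a 3′ mRNA method (QuantSeq), which gives reads from the end of each transcript. All tumors arose in female mice carrying the polyoma virus middle T oncoprotein on a C57BL/6 background, a transgene whose mammary promoter limits tumors to the mammary epithelium. In the neutralization experiment, PyMT WT mice received 100 µg of a human IgG1 isotype control (5 libraries, IgG1 isotype) or of an antibody against IL-38, an inhibitory cytokine of the IL-1 family (6 libraries, anti-IL-38), once a week over 5 weeks, starting when the first tumor measured 0.6 cm. In the γδ TCR experiment, PyMT WT mice received Armenian hamster IgG (4 libraries, WT + IgG), and PyMT mice without IL-38, from a knockout strain made in C57BL/6N, received the same IgG (4 libraries, IL-38 KO + IgG) or an antibody that blocks the receptor of γδ T cells (4 libraries, IL-38 KO + anti-γδTCR). These mice were treated from 13 weeks of age for 5 weeks, with 500 µg first and 200 µg in later weeks. The knockout groups therefore share the loss of IL-38, and the WT + IgG and IgG1 isotype groups differ in antibody, start of treatment and experiment at once.

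TGF-β is secreted as a latent complex with its own propeptide, anchored to matrix or cell surfaces by partner proteins and freed by integrins or proteases. The active dimer binds Tgfbr2, which recruits and phosphorylates the kinase Tgfbr1, and Smad2 and Smad3 then carry the signal to the nucleus together with Smad4. Activins, which are dimers of inhibin β chains such as the product of Inhba, use other type II receptors but the same Smads, whereas BMPs signal through Smad1, Smad5 and Smad9. Smad7 is induced by the pathway and blocks its receptors. In mammary tumors TGF-β is known to restrain epithelial growth, to activate fibroblasts and to suppress T cells.

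Libraries held between 6273049 and 15879164 reads assigned to genes. Epithelial, fibroblast, endothelial and macrophage marker lists were read in every group, with no marker of these lists at 0 reads over a whole group. Il1f10, the gene of IL-38, had 0 reads in all 23 libraries, WT included, which allows up to 0.189 to 0.478 CPM per library (3 counts), so the knockout label could not be checked at this depth. Replicate 4 of the IL-38 KO + IgG group and the 4 IL-38 KO + anti-γδTCR libraries stood apart from the other 18. They had the lowest depth (6273049 to 8794202 reads, against at least 10138353), and Gm42418, a gene model that overlaps ribosomal RNA sequence, took 11.3% to 20.1% of their reads against 2.62% to 5.70% elsewhere. The summed level of 8 macrophage markers (Adgre1, Csf1r, Cd68, C1qa, C1qb, C1qc, Mrc1 and Fcgr1) was 786 to 1080 CPM in these 5 libraries and 1519 to 3165 CPM in the other 18. In the column headers these 5 libraries carry the consecutive numbers 19 to 23 of a count over all 23 libraries, so that the number cannot be told apart from what sets them apart. The header of IL-38 KO + anti-γδTCR replicate 3, with the lowest depth and the highest share of Gm42418, also carries the mark rep. The labels do not explain this mark. By these values IL-38 KO + IgG replicate 4 lay near the blockade group and apart from its own. Other marker lists did not all place it there, nor all with its own group. Its luminal markers summed to 2970 CPM. The range was 2894 to 3341 CPM in its own group and 3472 to 3801 CPM in the blockade group. Its skeletal muscle markers, at 15.7 CPM, were the lowest of its group (median 177 CPM) and below the blockade range of 74.2 to 822 CPM. Its fibroblast markers, at 4529 CPM, were the highest of its group and inside the blockade range of 3372 to 9693 CPM. Its B and plasma cell markers, at 55.9 CPM, were the highest of its group (median 5.64 CPM). They lay above the blockade range of 7.69 to 15.6 CPM. Whether its label is right could not be checked here, and knockout and blockade values with this library depend on it. Fold changes of the 10 genes that include this library are given without it as well where that moved them by over 1.5 times or changed a call, and the blockade effect cannot be told apart from what sets the 5 libraries apart.

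Levels are given in CPM, counts divided by library size after TMM scaling over the 23 libraries. Fold changes are differences of log2(normalized count + 1), fitted by limma over all genes with Benjamini-Hochberg adjustment. By limma none of the 10 genes passed an adjusted p of 0.05 in any comparison with all libraries, and by edgeR none did either, whereas DESeq2 called Inhba in 3 comparisons and Tgfb2 and Tgfb3 in 1 each. With anti-IL-38, 3 of the 10 had an unadjusted p under 0.05 where 10.5% of all 16002 genes tested did, and the genes called after adjustment made up 0% (1682 genes had an unadjusted p under 0.05, edgeR called 0 and DESeq2 75). In IL-38 KO against WT tumors the count was again 3 of 10, against 12.1% of all genes, with 1 gene or 0.00604% called. With γδ TCR blockade it was 3 of 10, against 21.7%, with 0% called (3570 genes had an unadjusted p under 0.05, edgeR called 0 and DESeq2 1036). Between the control groups it was 2 of 10 against 18.6%, with 0.0994% called. When antibody and knockout were pooled (10 libraries against 9), 4 of 10 had an unadjusted p under 0.05 against 10.5%, and 0% were called (1725 genes had an unadjusted p under 0.05, edgeR called 1 and DESeq2 70). The pooled fit had no term for the experiment, although the control groups differ in experiment. With that term, 2415 of 16352 genes had an unadjusted p under 0.05 by limma, and 0 of the 10 were called. The median log2 fold change of the 10 genes was 0.26 with anti-IL-38, 0.32 in the knockout and −0.13 with blockade, where the median over all genes was 0.0019, 0.0053 and 0.02. Without IL-38 KO + IgG replicate 4 the median of the 10 was 0.34 in the knockout and −0.20 with blockade. The knockout count with an unadjusted p under 0.05 was then again 3 of 10, against 14% of all genes. These were Tgfb2, Tgfb3 and Tgfbr3, all higher, in place of Tgfb2, Tgfbr2 and Tgfb1. The pooled count was then 3 of 10, against 10.2%, and no longer held Inhba.

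**Figure D1:**
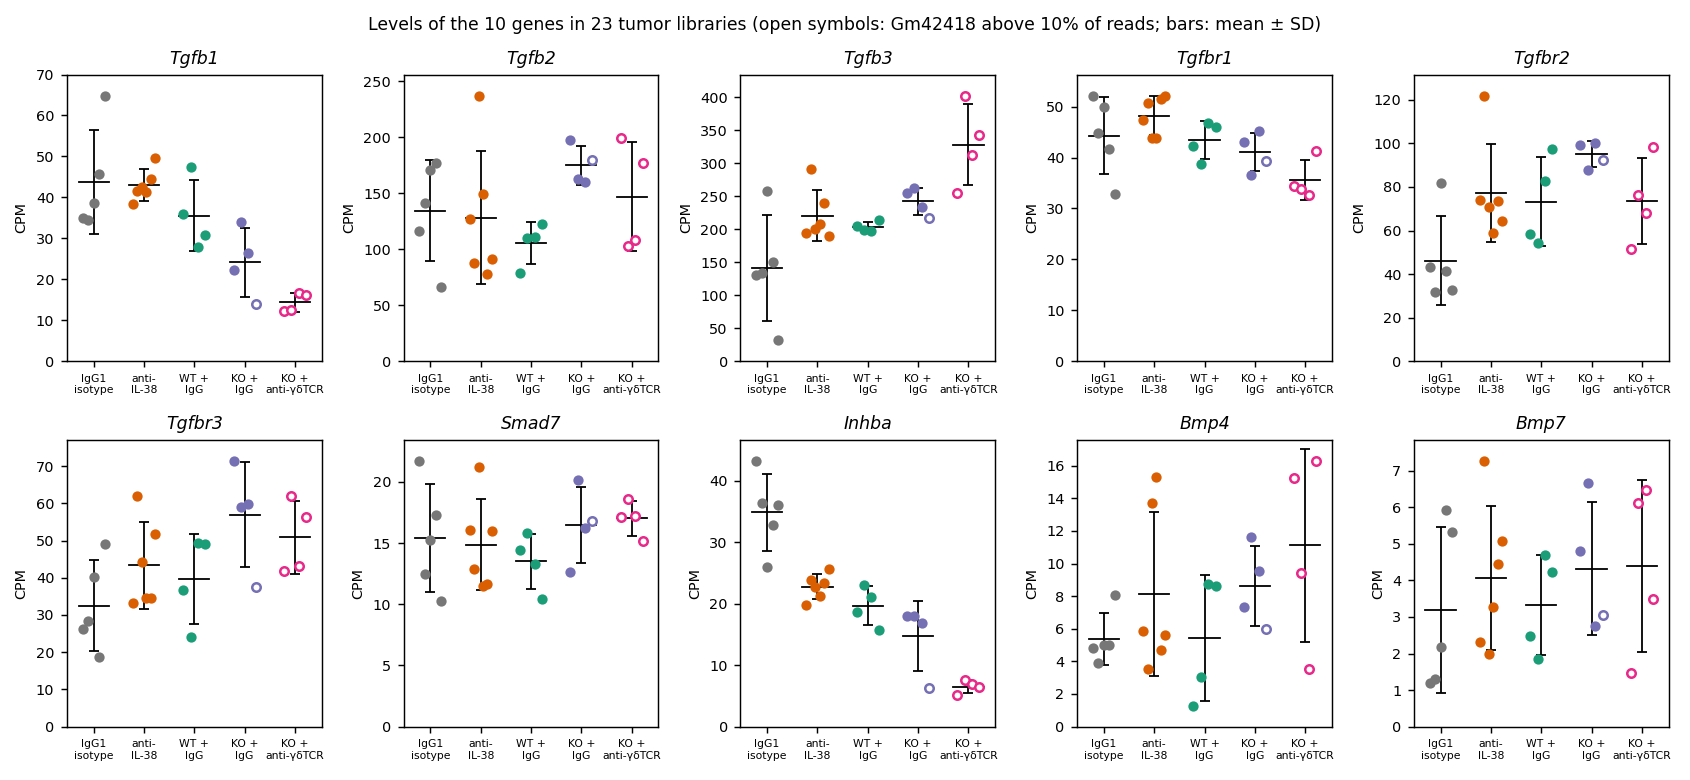
Level in CPM (linear axis from 0) of each of the 10 genes in the 23 libraries, by group, with black lines for the mean ± SD. Open symbols are the 5 libraries in which Gm42418 took over 10% of reads. Inhba was 26.0 to 43.2 CPM in the isotype group and 5.08 to 7.54 CPM in the blockade group, and Tgfb1 was likewise lowest in the open symbols.

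Inhba encodes the β chain of activin A, a ligand made by fibroblasts, macrophages and epithelium in wounds and tumors. The gene (ENSMUSG00000041324) lies at chr13:16011851-16031621 on the plus strand of GRCm38, and an antisense gene model, Gm48444, overlaps it. The 5 isotype control libraries had 43.2, 36.4, 26.0, 32.8 and 35.97 CPM, and the 6 anti-IL-38 libraries had 19.8, 23.8, 22.8, 21.3, 23.3 and 25.6 CPM. Every antibody-treated tumor was below every isotype control, although the highest treated library was close to the lowest control. Groups failed to overlap in this way in 1.04% of all genes. On the log2 scale the difference was −0.62 (SE 0.14, 95% interval −0.92 to −0.31), with an unadjusted p of 0.000699 and an adjusted p of 0.326 by limma. DESeq2 on the recovered reads gave an adjusted p of 0.0239, where it called 0.469% of genes, and edgeR 0.394. Over all alternatives the adjusted p ran from 0.0239 to 0.578. The summed macrophage markers were 2333 to 3165 CPM in the isotype group and 1971 to 2695 CPM in the anti-IL-38 group, 1 of the 8 with an unadjusted p under 0.05, in the lower direction. Such a p was also found for 2 of 10 fibroblast, 2 of 8 luminal and 1 of 7 basal markers, all higher. It was found for 1 of 5 neutrophil markers, lower, and for 10.5% of all genes. Gm42418 took 2.62% to 4.99% of reads in the isotype group and 3.87% to 5.51% in the anti-IL-38 group. In the column headers these groups carry the numbers 7 to 11 and 1 to 6. The part of the markers or of library quality in the differences of Inhba, and of Tgfb3 and Tgfbr2 below, was not tested.

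The γδ TCR experiment began from a lower level of Inhba. WT + IgG tumors had 18.7, 23.1, 21.1 and 15.7 CPM, all below the 5 isotype controls of the other experiment, and 7.02% of all genes did not overlap between these control groups. The log2 fold change of WT + IgG against IgG1 isotype was −0.85 (SE 0.18, 95% interval −1.24 to −0.47, adjusted p = 0.0861 by limma and 0.00215 by DESeq2, which called 4.58% of genes). Isotype antibody, start of treatment and experiment cannot be told apart as its source. Macrophage markers were lower in the same comparison, with an unadjusted p under 0.05 for 4 of 8 (median log2 fold change −0.31, summed level 1853 to 2424 CPM in WT + IgG), and fibroblast markers higher, with 6 of 10 (median 0.84). Their part in the Inhba difference was not tested.

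IL-38 KO + IgG tumors had 18.1, 17.98, 16.8 and 6.21 CPM of Inhba. The first 3 lay inside the WT range, and replicate 4 lay far below it. The log2 fold change against WT was −0.53 (SE 0.32, adjusted p = 0.509) with all 4 libraries and −0.16 (SE 0.18, 95% interval −0.55 to 0.23, adjusted p = 0.735) without replicate 4. IL-38 KO + anti-γδTCR tumors had 5.08, 7.54, 6.84 and 6.45 CPM, a range that holds the 6.21 CPM of IL-38 KO + IgG replicate 4. Blockade gave a log2 fold change of −1.03 (SE 0.33, adjusted p = 0.106 by limma and 0.0277 by DESeq2, which called 6.29% of genes). Without replicate 4 it was −1.38 (SE 0.22, 95% interval −1.86 to −0.90, adjusted p = 0.00115), in a fit that called 14.3% of all genes, and over all alternatives the adjusted p reached 0.277. The effect of anti-IL-38 minus the effect of the knockout was −0.09 on the log2 scale (95% interval −0.79 to 0.61, adjusted p = 0.964), and −0.46 (95% interval −0.92 to 0.002, adjusted p = 0.650) without replicate 4.

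Tgfb1, the ligand most closely tied to immune suppression, was low in the same 5 libraries. The gene (ENSMUSG00000002603) lies at chr7:25687002-25705077 on the plus strand of GRCm38 with no overlapping gene. Its level was 35.0, 34.4, 38.6, 45.8 and 64.8 CPM with isotype control and 38.3, 41.6, 42.5, 41.2, 44.4 and 49.7 CPM with anti-IL-38. The treated range lay within that of the controls, with a log2 fold change of −0.0036 (95% interval −0.35 to 0.34, adjusted p = 0.996). WT + IgG tumors had 35.9, 47.5, 28.0 and 30.7 CPM and IL-38 KO + IgG tumors 22.2, 34.0, 26.4 and 14.01 CPM. Of the 4 knockout tumors, 3 were below every WT tumor. This gave a log2 fold change of −0.61 (SE 0.26, unadjusted p = 0.0403, adjusted p = 0.390), and −0.38 (SE 0.21, adjusted p = 0.464) without replicate 4. Blockade libraries had 12.3, 12.6, 16.6 and 16.1 CPM, with a log2 fold change of −0.64 (SE 0.25, adjusted p = 0.175). Without IL-38 KO + IgG replicate 4, whose 14.01 CPM sat among them, Tgfb1 fell by 0.86 on the log2 scale (SE 0.21, adjusted p = 0.0189, up to 0.390 over all alternatives).

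The macrophage markers had a median log2 fold change below 0 in the knockout and with blockade. With all libraries limma called 0 of the 8 in either comparison. Their summed level was 851 to 2053 CPM in IL-38 KO + IgG and 1853 to 2424 CPM in WT + IgG tumors, so that these groups overlapped. In the knockout, 3 of 8 had an unadjusted p under 0.05, all lower, with a median log2 fold change of −0.48, and without replicate 4 it was again 3 of 8, with a median of −0.26, where 14% of all genes had such a p. With blockade 5 of 8 did, all lower, with a median of −0.72. In the blockade fit without replicate 4, 4 of the 8 were called lower and 0 higher. Of the other cell type lists in that fit, 1 of 8 luminal and 1 of 3 B and plasma cell markers were called, both higher. That fit called 14.3% of all genes. Each of the 8 macrophage markers still had reads in every group. Inhba (5.08 to 7.54 CPM in the 5 libraries that stood apart, 15.7 to 43.2 CPM in the other 18) and Tgfb1 (12.3 to 16.6 against 22.2 to 64.8 CPM) were the members with no overlap between these sets of libraries, a property of 10.5% of 16463 genes. In bulk RNA, fewer cells of a type and less RNA per cell cannot be told apart, and the part of macrophage content or of library quality in these values was not tested.

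**Figure D2:**
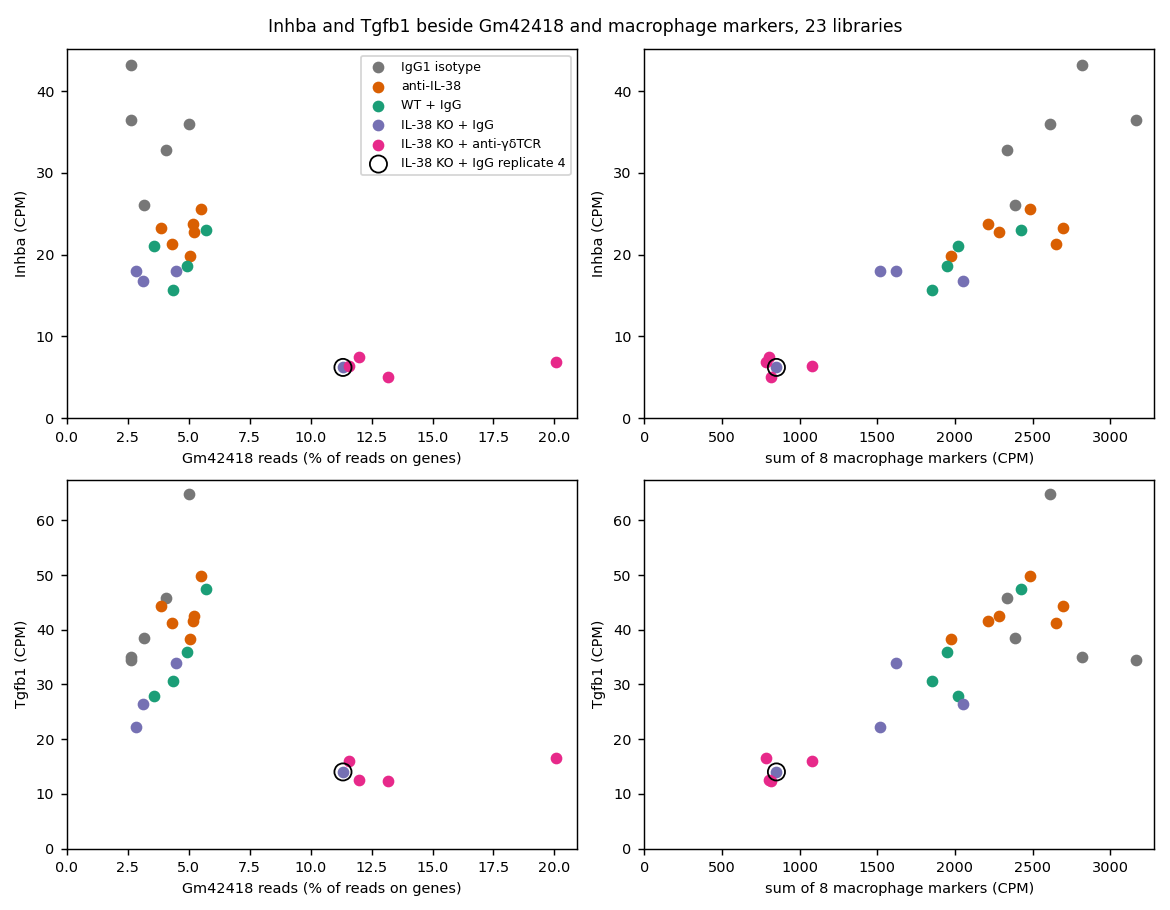
Inhba (top) and Tgfb1 (bottom) in CPM in each of the 23 libraries, against the percent of reads on Gm42418 (left) and the summed CPM of 8 macrophage markers (right), with linear axes from 0. IL-38 KO + IgG replicate 4, circled, sits with the 4 blockade libraries at 11.3% Gm42418 and 851 CPM of macrophage markers, apart from the other 18 libraries at 2.62% to 5.70% and 1519 to 3165 CPM.

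The sequences before the starts of Inhba and Tgfb1 are shown because these genes were low in the same libraries, and that of Tgfb2 because it was not. Each run holds the 250 bases before the annotated start (RefSeq, GRCm38.p6), written on the gene's own strand, with capitals at matches on either strand to the AP-1 motif TGACTCA, the CRE motif TGACGTCA, the palindromic Smad motif GTCTAGAC, the shorter Smad motif CAGACA, the TATA box TATAAA or the GC box GGGCGG. A promoter entry was found for 6 of the 10 genes. Inhba lies after chr13:16011601-16011850, Tgfb1 after chr7:25686752-25687001, and Tgfb2, on the minus strand, before chr1:186705990-186706239.
Inhba: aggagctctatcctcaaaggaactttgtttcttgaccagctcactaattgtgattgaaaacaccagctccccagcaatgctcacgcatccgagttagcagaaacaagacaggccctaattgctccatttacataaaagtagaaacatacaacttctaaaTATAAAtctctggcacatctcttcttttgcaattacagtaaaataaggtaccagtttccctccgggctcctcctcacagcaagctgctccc
Tgfb1: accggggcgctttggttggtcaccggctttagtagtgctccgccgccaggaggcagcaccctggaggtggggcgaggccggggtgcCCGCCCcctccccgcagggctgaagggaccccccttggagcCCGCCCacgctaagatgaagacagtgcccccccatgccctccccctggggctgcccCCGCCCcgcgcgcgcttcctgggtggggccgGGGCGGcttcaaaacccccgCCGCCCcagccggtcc
Tgfb2: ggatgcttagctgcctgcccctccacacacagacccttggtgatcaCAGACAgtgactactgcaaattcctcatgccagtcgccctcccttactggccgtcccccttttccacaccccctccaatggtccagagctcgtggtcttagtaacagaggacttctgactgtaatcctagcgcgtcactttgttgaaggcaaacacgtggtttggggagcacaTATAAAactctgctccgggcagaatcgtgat
Inhba had 1 match, TATAAA beginning 91 bases before the start, in a run of 43.2% G and C. Tgfb1 had 5 matches to GGGCGG, the nearest 16 bases before the start, in a run of 75.2% G and C. Tgfb2 had TATAAA 31 bases before the start and CAGACA 204 bases before it, at 53.6% G and C. TATAAA occurred in 12.4%, GGGCGG in 32.7% and CAGACA in 17.1% of 32851 promoter windows of this length, and the other motifs in 4.46% (TGACTCA), 1.55% (TGACGTCA) and 0.167% (GTCTAGAC). Inhba and Tgfb1 shared none of the searched motifs in these windows.

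Tgfb2, a ligand of epithelium and stroma that needs Tgfbr3 for strong binding to its receptors, had the smallest p of the 10 genes in the knockout. The gene (ENSMUSG00000039239) lies at chr1:186622792-186705989 on the minus strand of GRCm38, and the gene models that overlap it had a median of 0 reads. WT + IgG tumors had 78.5, 110.4, 111.3 and 122.8 CPM and IL-38 KO + IgG tumors 197.7, 162.6, 160.3 and 179.5 CPM. Every knockout tumor, replicate 4 included, was above every WT tumor. Groups did not overlap for 7.06% of all genes in this comparison, and for 2 of the 10 here, Tgfb2 and Tgfb3. The knockout minus WT difference was 0.73 on the log2 scale (SE 0.16, 95% interval 0.38 to 1.07, unadjusted p = 0.000691), with an adjusted p of 0.210 by limma, 0.249 by edgeR and 0.00534 by DESeq2, which called 1.84% of genes. It was 0.71 without replicate 4 (adjusted p = 0.109), and the highest adjusted p over all alternatives was 0.523. Markers of other cell types moved in the same comparison. Adipocyte markers had an unadjusted p under 0.05 for 4 of 7, all lower in the knockout (median log2 fold change −1.06, summed level 75.6 to 310.7 CPM against 225.9 to 400.3 CPM), and for 5 of 7 without replicate 4. Skeletal muscle markers did for 2 of 8, all higher (median 2.11, 15.7 to 404.9 CPM against 1.84 to 69.0 CPM), and for 8 of 8 without replicate 4 (median 3.11), which itself had 15.7 CPM. No marker of these lists was at 0 reads over a group, and their part in the knockout differences was not tested. With isotype control the level was 116.4, 141.5, 170.7, 176.9 and 66.4 CPM, and with anti-IL-38 it was 126.9, 87.6, 237.2, 149.3, 78.1 and 91.2 CPM. These groups overlapped over nearly their whole range (log2 fold change −0.11, 95% interval −0.76 to 0.54). The antibody effect minus the knockout effect was −0.84 (SE 0.40, unadjusted p = 0.0483, adjusted p = 0.650), where 7.67% of all genes had an unadjusted p under 0.05 and 0.00612% were called. Without replicate 4 that difference was −0.82 (unadjusted p = 0.0696). Blockade libraries had 199.7, 102.8, 108.4 and 176.7 CPM, around the knockout level on both sides (log2 fold change −0.26, 95% interval −0.75 to 0.23).

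Tgfb3, which is prominent in the mammary gland as milk production ends, had the highest level in the blockade group and the widest spread among isotype controls. The gene (ENSMUSG00000021253, chr12:86056745-86079041, minus strand, GRCm38) is overlapped on the other strand by Ttll5, which had a median of 264 reads. Isotype controls had 131.1, 133.0, 257.9, 149.7 and 32.3 CPM and anti-IL-38 tumors 194.8, 291.6, 199.8, 208.2, 239.6 and 189.1 CPM. All treated tumors exceeded 4 of the 5 controls, and isotype replicate 3 lay within the treated range. Their log2 fold change was 0.88 (SE 0.38, adjusted p = 0.455), and 0.42 without isotype replicate 5. WT + IgG tumors had 204.7, 198.9, 197.1 and 213.3 CPM, a narrow range below the IL-38 KO + IgG values of 255.1, 261.9, 233.8 and 216.8 CPM. That log2 fold change was 0.23 (SE 0.12, 95% interval −0.03 to 0.50, adjusted p = 0.446). Without replicate 4, the lowest knockout library, it was 0.28 (SE 0.11, 95% interval 0.03 to 0.53, adjusted p = 0.304). Blockade libraries had 254.6, 402.0, 311.9 and 342.3 CPM. In the 8-library table all 4 were above all 4 knockout controls, a separation found in 9.54% of genes, although in CPM the lowest overlapped with replicates 1 and 2 (log2 fold change 0.47, SE 0.16, adjusted p = 0.112 by limma, 0.0479 by DESeq2, up to 0.258 over all alternatives).

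Bmp4 and Bmp7, BMPs of mesenchyme and of epithelium, were read at low depth, with 16 to 164 and 11 to 96 reads per library. Bmp4 ranged from 1.28 to 8.76 CPM in WT + IgG tumors and from 5.99 to 11.6 CPM in IL-38 KO + IgG tumors, with a log2 fold change of 0.98 and an interval that reached from −0.18 to 2.14 (adjusted p = 0.469). With isotype control it was 3.88 to 8.08 CPM and with anti-IL-38 3.56 to 15.3 CPM (log2 fold change 0.41, 95% interval −0.39 to 1.21). Blockade libraries spread from 3.51 to 16.3 CPM, with a log2 fold change of 0.23 with and 0.09 without replicate 4 of the controls. Bmp7 lay between 1.19 and 7.27 CPM over all 23 libraries, and its group means ran only from 3.19 to 4.39 CPM. The 95% intervals of its log2 fold change, −0.46 to 1.19 in the knockout and −1.12 to 1.02 with blockade (−1.29 to 0.96 without replicate 4), were too wide to show or to deny a moderate difference. Its SD within groups was 0.77 on the log2 scale, and that of Bmp4 was 0.81. The parts of depth and of differences between tumors in this spread were not tested.

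**Figure D3:**
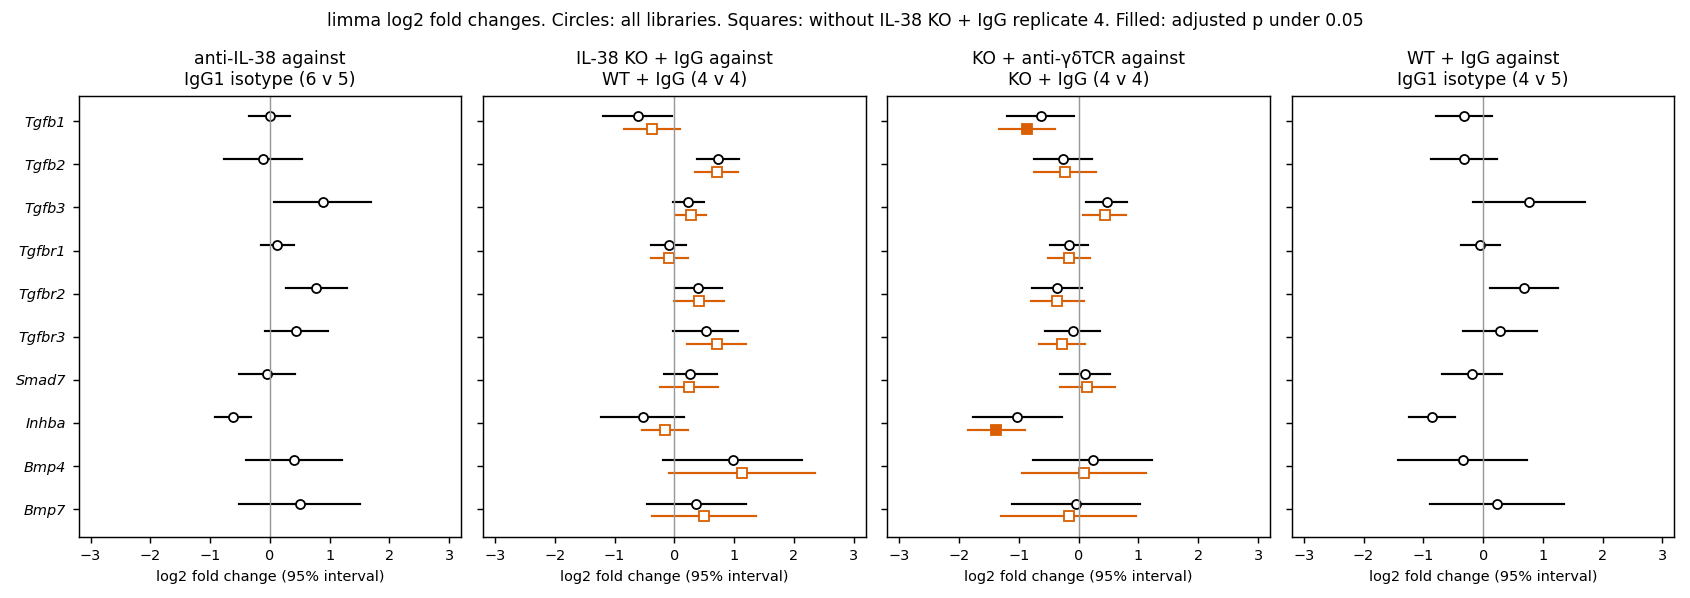
limma log2 fold change with its 95% interval for each gene in 4 comparisons, with all libraries (circles) and without IL-38 KO + IgG replicate 4 (squares), where filled symbols have an adjusted p under 0.05. The filled symbols are Inhba (−1.38) and Tgfb1 (−0.86) with blockade, both without replicate 4.

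Among the receptors, Tgfbr2, the type II receptor that binds TGF-β first, had the smallest p in the pooled comparison. The gene (ENSMUSG00000032440) lies at chr9:116084293-116175360 on the minus strand of GRCm38. Isotype controls had 43.1, 31.6, 81.8, 41.6 and 32.9 CPM and anti-IL-38 tumors 73.9, 121.8, 70.8, 58.7, 73.5 and 64.5 CPM. All 6 treated tumors were above 4 of the 5 controls, and control replicate 3 was above 5 of the 6 treated tumors. The log2 fold change was 0.77 (SE 0.24, unadjusted p = 0.00567, adjusted p = 0.412), and 1.00 without that control. Over all alternatives it ran from 0.64 to 1.00. WT + IgG tumors had 58.4, 54.3, 82.8 and 97.4 CPM and IL-38 KO + IgG tumors 99.4, 87.6, 100.2 and 92.5 CPM (log2 fold change 0.40, SE 0.18, adjusted p = 0.407). Antibody and knockout pooled gave 0.60 (SE 0.19, unadjusted p = 0.00550, adjusted p = 0.316). WT + IgG tumors were in turn higher than most isotype controls (log2 fold change 0.68, SE 0.26, adjusted p = 0.205). Blockade libraries, at 51.3, 76.2, 67.9 and 98.5 CPM, had a log2 fold change of −0.36 (95% interval −0.77 to 0.05).

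Tgfbr1, the signaling kinase, was the steadiest of the 10. Over all libraries it lay between 32.7 and 52.1 CPM, and its SD within groups was 0.17 on the log2 scale, against 0.34 to 0.81 for the other members. Its log2 fold changes were 0.12 with anti-IL-38 (95% interval −0.15 to 0.40), −0.09 in the knockout (−0.38 to 0.19) and −0.16 with blockade (−0.47 to 0.15). Tgfbr3, betaglycan, presents ligand to Tgfbr2 and can be shed as a trap. It was 23.9 to 49.5 CPM in WT + IgG and 37.6 to 71.4 CPM in IL-38 KO + IgG tumors, where 3 of the 4 were above every WT tumor. The log2 fold change was 0.53 (SE 0.25, adjusted p = 0.420), and 0.71 (SE 0.22, adjusted p = 0.199) without replicate 4, the lowest knockout library. Antibody and knockout pooled gave 0.46 (SE 0.19, unadjusted p = 0.0260, adjusted p = 0.417). With isotype control it was 18.6 to 49.2 CPM and with anti-IL-38 33.3 to 62.1 CPM (log2 fold change 0.44, 95% interval −0.09 to 0.97). Blockade libraries, at 41.8 to 61.9 CPM, lay between the 37.6 CPM of knockout replicate 4 and the highest knockout library (log2 fold change −0.10, 95% interval −0.56 to 0.35). Without replicate 4 the other knockout libraries were at 58.9 CPM or more, 3 of the 4 blockade libraries were below all of them, and the log2 fold change was −0.27 (95% interval −0.66 to 0.11, adjusted p = 0.370). Gene models on the same strand overlap Tgfbr3, of which Gm43423 had a median of 33 reads.

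Smad7, the feedback inhibitor, had 95% intervals that included 0 in each comparison. It ranged from 10.2 to 21.7 CPM in the isotype group and from 11.5 to 21.2 CPM with anti-IL-38 (log2 fold change −0.05, 95% interval −0.52 to 0.42). WT + IgG tumors had 10.5 to 15.8 CPM, IL-38 KO + IgG tumors 12.6 to 20.2 CPM and blockade libraries 15.2 to 18.6 CPM. The knockout fold change was 0.27 (95% interval −0.17 to 0.71) and that with blockade 0.11 (−0.31 to 0.52). Unlike Inhba and Tgfb1, it did not separate the 5 libraries that stood apart (15.2 to 18.6 CPM) from the rest (10.2 to 21.7 CPM).

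A wider list of 81 genes of the pathway, without the 10 members, was read in the same fits. With all libraries limma called 0 of them in each comparison, edgeR 0 likewise, and DESeq2 0 in the pooled comparison, 1 with anti-IL-38, 3 in the knockout, 5 with blockade, 5 between the control groups and 0 for the difference of effects. With anti-IL-38, 8 of 75 tested had an unadjusted p under 0.05 in the higher and 2 in the lower direction, close to the 10.5% of all genes. Gdf10 had the smallest p there, at 4.67 ± 1.53 CPM (SD, n = 6) with antibody and 1.13 ± 0.962 CPM (SD, n = 5) with isotype control (adjusted p = 0.373). Id3, an inhibitor of differentiation induced by BMPs, followed at 29.9 ± 19.7 and 11.1 ± 4.29 CPM (adjusted p = 0.412), and Inhbb, another activin β chain, at 87.9 ± 23.7 and 55.0 ± 14.9 CPM (adjusted p = 0.412). Inhbb thus pointed opposite to Inhba.

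In the knockout, 8 of 74 had an unadjusted p under 0.05 in the higher and 4 in the lower direction, against 12.1% of all genes, and without replicate 4 it was 12 and 3 of 73, against 14%. Itgb8, the integrin chain that frees latent TGF-β, was 34.6 ± 6.84 CPM in IL-38 KO + IgG and 18.6 ± 3.94 CPM in WT + IgG tumors (SD, n = 4 each), with no overlap (log2 fold change 0.89, SE 0.20, adjusted p = 0.210, and 0.0930 without replicate 4). Ltbp1, which anchors latent TGF-β in matrix, was 74.7 ± 13.3 and 45.3 ± 12.2 CPM (adjusted p = 0.245). Without replicate 4 it was 81.2 ± 2.80 CPM in the knockout, with no overlap (adjusted p = 0.0985). Acta2, smooth muscle actin and a target of the pathway, was 163 ± 34.1 and 337 ± 125 CPM (adjusted p = 0.210, and 0.136 without replicate 4). The 9 receptors tested besides the members had a median log2 fold change of 0.25 (0.31 without replicate 4) and 12 latency genes of 0.22 (0.25), against 0.0053 for all genes. The 18 targets had −0.03, and −0.10 without replicate 4.

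With blockade and all libraries, 9 of 74 had an unadjusted p under 0.05 in the higher and 7 in the lower direction, against 21.7% of all genes. Smad3, Furin (the protease that matures the propeptide) and Bmp1 had the smallest p, each with an adjusted p of 0.0657. Smad3 was 54.7 ± 2.78 CPM with anti-γδTCR and 37.0 ± 2.27 CPM in IL-38 KO + IgG. Without replicate 4, 7 of the 74 were called, or 5 higher and 2 lower, where 14.3% of all genes were. Smad3 rose by 0.64 on the log2 scale, Furin by 0.86, Bmp1 by 1.14 and Acvr2b, an activin receptor, by 1.13. Grem1, a secreted BMP antagonist, was 2.95 ± 0.759 CPM with blockade and 0.147 ± 0.254 CPM in the 3 controls, which is at the counting limit. Nrros, which holds latent TGF-β on myeloid cells, fell by 1.80 (SE 0.19, adjusted p = 6.07e-05), from 62.8 ± 15.4 to 16.9 ± 0.971 CPM, and Tgfbi, a target, fell by 0.80 (adjusted p = 0.0132). In the same fit 4 of 8 macrophage markers were called lower. The part of macrophage content or of library quality in the Nrros difference was not tested.

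Between the control groups, 10 of 74 had an unadjusted p under 0.05 in the higher and 8 in the lower direction, against 18.6% of all genes. Ltbp2, another latent TGF-β binding protein, was 112 ± 20.2 CPM in WT + IgG and 51.5 ± 11.7 CPM in the isotype group (adjusted p = 0.0727), and Id2 was 496 ± 36.9 and 737 ± 54.0 CPM (adjusted p = 0.0811), each without overlap. Adipocyte markers moved in the same comparison, with 4 of 7 called higher in WT + IgG (225.9 to 400.3 CPM summed, against 41.8 to 100.5 CPM). An unadjusted p under 0.05 was found for 6 of 10 fibroblast markers (2886 to 6034 against 1301 to 4043 CPM summed), 3 of 7 basal markers, 2 of 8 luminal markers, 2 of 8 pericyte and smooth muscle markers and 2 of 7 T cell markers, all higher, and for 4 of 8 macrophage and 2 of 5 neutrophil markers, all lower. Their part in the Ltbp2 and Id2 differences was not tested. In the pooled comparison 9 of 75 had an unadjusted p under 0.05 in the higher and 1 in the lower direction, against 10.5% of all genes, and without IL-38 KO + IgG replicate 4 it was 10 and 0 of 74, against 10.2%. Ltbp1 (78.1 ± 33.3 against 46.1 ± 9.75 CPM, adjusted p = 0.260) and Inhbb (86.5 ± 20.96 against 60.8 ± 13.3 CPM, adjusted p = 0.283) led, followed by Itgb8 (26.1 ± 9.61 against 15.97 ± 5.00 CPM, adjusted p = 0.331). Without replicate 4 Inhbb led (adjusted p = 0.203), followed by Ltbp1 (adjusted p = 0.237) and the pseudoreceptor Bambi (20.04 ± 10.1 against 9.58 ± 4.11 CPM, adjusted p = 0.280).

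How the members varied among themselves was described over the 19 libraries of the larger table, after group means were removed. Of 45 pairs, 4 had a Pearson's r above 0.5 and 1 below −0.5, and the median was 0.06. Inhba and Tgfb1 had an r of 0.61, and 0.26 when IL-38 KO + IgG replicate 4 was left out. Tgfb3 and Tgfbr1 had 0.67, and 0.14 without isotype replicate 5. Tgfb3 and Tgfbr2 had 0.57, and this value rested on single libraries in both directions, at 0.78 without isotype replicate 5 and 0.32 without isotype replicate 3.

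**Figure D4:**
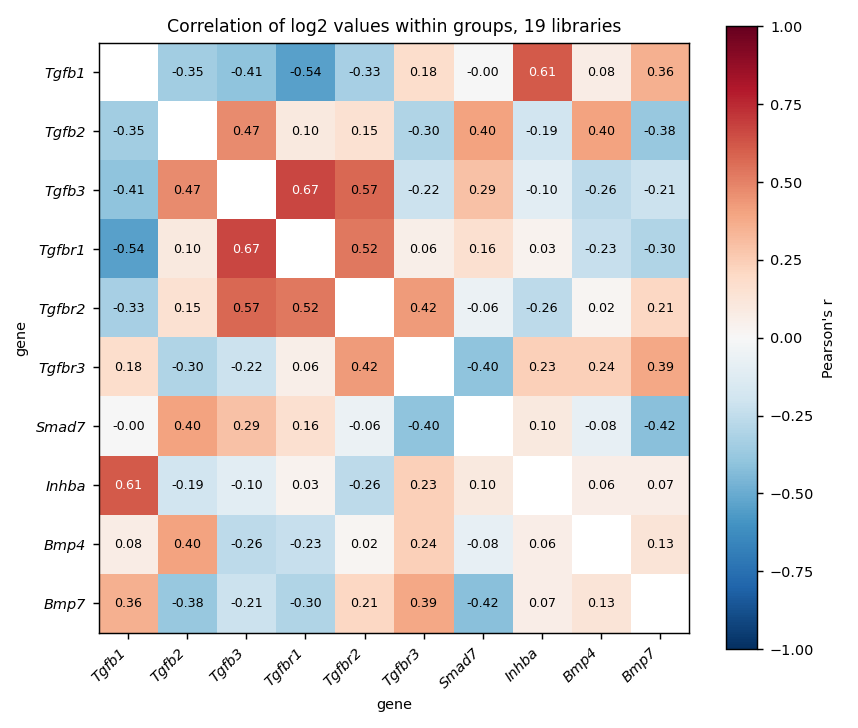
Pearson's r of log2(normalized count + 1) between each pair of the 10 genes over 19 libraries, after removing group means, on a color scale from −1 to 1. The highest value is 0.67 (Tgfb3 with Tgfbr1) and the lowest −0.54 (Tgfb1 with Tgfbr1).

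Among 13609 genes with a mean of at least 20, the pattern most like that of Inhba belonged to Treml2 (r = 0.98), Pla2g15 (0.97) and Speg (0.96), and these values were 0.93, 0.88 and 0.86 without IL-38 KO + IgG replicate 4. For Tgfb1 they were Capg, Cuedc2 and Emp3 (0.92, 0.90 and 0.88), for Tgfb2 Yipf6, Atp6v0a2 and Gde1 (0.95, 0.93 and 0.90), and for Tgfb3 Psapl1, Pcdhb9 and Slc5a8 (0.96, 0.95 and 0.95). The values for Tgfb3 went down to 0.79, 0.78 and 0.86 without isotype replicate 5. Tgfbr2 was most like M6pr, Selenof and Susd6 (0.92, 0.91 and 0.90), Tgfbr1 like Fam221a and Atp10d (0.89 and 0.85), and Tgfbr3 like Tnfrsf21, Apmap and Rtn1 (0.83, 0.79 and 0.78). Smad7 went with Unkl, Lamtor2 and 3010003L21Rik (0.80, 0.76 and 0.76), Bmp4 with Syt13, Nipal3 and Tctn2 (0.82, 0.80 and 0.80) and Bmp7 with Chrm1, Sall2 and Ppm1l (0.85, 0.85 and 0.81). These are the highest of many correlations over 19 tumors that share depth and cell makeup, and no member was among the 3 most like genes of another.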

How the data were processed

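RNA of PyMT tumors was measured in 23 libraries by 3′ mRNA sequencing. The submitters' processing notes name STAR, HTSeq, DESeq2 and GRCm39, and whether counting used strand is not given in the sources used here. Deposited values are normalized counts (a signal unit): the authors divided each library's counts by 1 size factor, in separate tables of 19 and 8 libraries, which share the 4 IL-38 KO + IgG libraries with identical reads. Dividing by the value of 1 read gave whole reads for 100% of values (tolerance 0.0001%), though in WT + IgG replicate 1 that value, 0.9959, was close to 1. All columns were used (0 left out). Names and coordinates come from GENCODE M21 on GRCm38, another build than the authors used, and 47224 of 47643 identifiers matched. Genes with a mean of at least 5 were tested with limma 3.58.1 (R 4.3.3, two-sided moderated test with a mean trend) on log2 of the normalized count plus 1, Benjamini-Hochberg adjusted and called under 0.05, only the libraries compared entering each fit. The difference of effects was an interaction term over 19 libraries. edgeR 4.0.16 and DESeq2 1.42.0 were run on the recovered reads. On simulated counts limma recovered 199 to 200 of 200 changed genes in the 2-group comparisons, with 5 to 12 false calls. For the difference of effects it recovered 194, with 5 false calls. The planted changes were larger than any fold change of the 10 genes, and lay in genes with a mean of at least 20. Their spread was set at a fixed value, not taken from these tumors. This recovery therefore does not show how much limma could find here. CPM used TMM over all libraries, and limits for 0 reads cover counting error only. The numbers of samples do not come from shared animals, so replicates were not paired, and p-values measure the spread between libraries labelled as separate samples. No pair within a group was a duplicate. Members, gene lists and tests were chosen with earlier results of these data known. Genes named are the 10 members, the pathway genes past the threshold or with the 3 smallest p per comparison, and the 3 genes most like each member, of which 1 for Tgfbr1 is not reported here.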

Additional observations from a re-analysis of the deposited data

Results flagged for a closer look

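Of 50 groups of values (10 genes in 5 groups), 4 held a library far from the others of its group by Dixon's criterion, where chance alone gives about 1 in 20. Inhba was 6.21 CPM in IL-38 KO + IgG replicate 4, against 16.8 to 18.1 CPM in the other 3, and this library also carried the high share of Gm42418. Tgfbr2 was 81.8 CPM in IgG1 isotype replicate 3 against 31.6 to 43.1 CPM in the other 4, and 121.8 CPM in anti-IL-38 replicate 2 against 58.7 to 73.9 CPM in the other 5. Bmp4 was 8.08 CPM in IgG1 isotype replicate 5, against 3.88 to 5.01 CPM in the other 4.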

How the results depend on the processing

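Of 1290 fold changes of the 10 genes refitted under another setting, 1243 kept their direction and their side of the threshold, 7 newly passed it and 40 changed sign. DESeq2 gave 5 of the new calls (Inhba in 3 comparisons, Tgfb2 and Tgfb3 in 1 each), or 1 member with anti-IL-38, 1 in the knockout, 2 with blockade and 1 between controls, and leaving out IL-38 KO + IgG replicate 4 gave the other 2. Over all genes DESeq2 called 70 (pooled), 75 (anti-IL-38), 305 (knockout), 1036 (blockade), 738 (controls) and 22 (difference of effects), and edgeR called 1, 0, 0, 0, 11 and 0, where limma called 0, 0, 1, 0, 16 and 1. The experiment as a term gave 1 in the pooled comparison, and a pseudocount of 0.5 gave 7 between controls. With the replicate number as a block, 1 gene was called with anti-IL-38, 0 in the knockout and 36 between controls, and no member was. Same-numbered libraries correlated at −0.169 to 0.0746 and only 2 of 13 were closest to their own number. Leaving out 1 library gave 0 to 23 calls in the pooled comparison (23 without isotype replicate 3), 0 to 6 with anti-IL-38 (6 without isotype replicate 3), 0 to 7 in the knockout (7 without WT replicate 3 or IL-38 KO + IgG replicate 4), 0 to 2357 with blockade (2357 without IL-38 KO + IgG replicate 4, with 0 to 2 members), 0 to 45 between controls (45 without isotype replicate 1, 0 without WT replicate 1, 2 or 4) and 0 to 2 for the difference of effects. The cause of these shifts was not tested.

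Fold changes that changed sign were as follows, with the range over libraries left out in turn. Tgfbr1 was −0.0088 to 0.074 in the pooled comparison and −0.14 to 0.019 between controls. With anti-IL-38, Tgfb1 was −0.077 to 0.15 (0.0090 with TMM), Tgfb2 −0.34 to 0.010 and Smad7 −0.18 to 0.085. With blockade, Tgfbr3 was −0.27 to 0.0056, Smad7 −0.026 to 0.20, Bmp4 −0.020 to 0.70 and Bmp7 −0.30 to 0.39 (0.031 with edgeR, 0.069 with DESeq2). Between controls, Bmp4 was −0.69 to 0.21 and Bmp7 −0.027 to 0.53. For the difference of effects, Tgfbr3 was −0.27 to 0.13, Inhba −0.46 to 0.041 and Bmp7 −0.13 to 0.43 (−0.026 with edgeR, −0.037 with DESeq2). Bmp4 and Bmp7 had the fewest reads, at 11 to 164 per library, and the widest spread within groups. The part of depth in their shifts was not tested.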
